A study of Saccharomyces cerevisiae with 6 samples.

Results

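The *COS* genes of *S. cerevisiae* are a family of related genes near the ends of the chromosomes. Their protein products are membrane proteins of the endosome. They take part in the sorting of plasma membrane proteins into multivesicular bodies, and supply ubiquitin in trans to cargo that carries none itself. Genes this close to a telomere lie where the Sir proteins, with Rap1 and the Ku proteins, can silence chromatin. As the family members resemble each other, a short read can often come from more than one of them. The genes followed here were *COS1* to *COS10*, taken by their systematic names from the 7445 features of the count table. All 10 had counts and passed the expression filter.

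The transcriptomes came from 6 cultures of a single strain (PDW2798) with the W303-1A background, of which 3 received 500 µM auxin for 1 h and 3 a mock, all in YPDA medium at 25 °C. This dose is that of the labels, whereas the paper's methods describe a lower auxin concentration in the later part of the hour. In both groups the *RIO1-AID::KanMX4* allele joined an auxin-inducible degron to the protein kinase Rio1. Both also carried *PADH1-OsTIR1-9myc::URA3*, which makes the plant F-box protein OsTIR1 from the *ADH1* promoter. OsTIR1 marks the degron for destruction once auxin is added. Auxin-treated cells of a strain without the degron are not analysed here, so that Rio1 depletion and auxin itself cannot be told apart. A protocol field in the labels names auxin for each of the 6 cultures, and the treatment field was used to separate the groups. No label states how the columns of the count table are coded, so each direction given here rests on reading the letter a in a column name as auxin. Each culture had between 110119744 and 125303818 counts. *RIO1* mRNA stood at 40.9, 39.4 and 42.7 counts per 1000000 (CPM) in the auxin-treated cultures, against 19.8, 21.9 and 22.8 CPM in the mock-treated cultures. It was higher in every auxin-treated culture (log2 fold change 0.93, SE 0.05, edgeR adjusted p = 1.8e-07), and the degron removes the protein, so that this mRNA cannot serve as a check of the labels. *URA3*, the marker of the *OsTIR1* cassette, was read in all cultures, at 236 ± 15.7 CPM with auxin and 263 ± 13.6 CPM with the mock (SD, n = 3 each). The W303-1A background holds the mutant allele *ura3-1*, whose reads may be counted for the same gene. These reads therefore do not show that the cassette was present.

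The members lay between 1.70 kb (*COS2*) and 14.5 kb (*COS9*) from the nearest chromosome end in assembly R64. *COS1* (YNL336W) spanned chrXIV:8330-9475 on the plus strand, *COS2* (YBR302C) chrII:810340-811479 on the minus strand, and *COS3* (YML132W) chrXIII:7244-8383 on the plus strand. *COS4* (YFL062W) spanned chrVI:6426-7565 on the plus strand, *COS5* (YJR161C) chrX:742848-743999 on the minus strand, and *COS6* (YGR295C) chrVII:1081584-1082729 on the minus strand. *COS7* (YDL248W) spanned chrIV:1802-2953, *COS8* (YHL048W) chrVIII:6401-7546, *COS9* (YKL219W) chrXI:14485-15708 and *COS10* (YNR075W) chrXIV:779916-781040, all on the plus strand. *COS10* was the one member transcribed towards its chromosome end. No other gene of the RefSeq annotation overlapped a member. The count table also holds features that this annotation does not place, and reads shared with those were not examined.

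The genes were 1125 to 1224 bases long and differed widely in how alike they were. *COS2* and *COS3* were identical over all 1140 bases (100% identity). *COS1* matched *COS2* and *COS3* at 96.1% of aligned positions and *COS4* at 95.8%, and *COS5* matched *COS7* at 95.6%. *COS6* was closest to *COS1* (91.4%) and *COS8* to *COS6* (86.7%). *COS9* and *COS10* stood apart, with closest matches of 70.3% and 62.4%.

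The promoter windows are shown so that they can be set beside the response. They run from 250 bases before to 50 bases after the annotated start, 5′ to 3′ on the gene's strand, cut from the RefSeq R64 genome. The letters TATAAA, the core of a TATA box, and AGGGG, the core of the stress response element to which Msn2 and Msn4 bind, were searched on both strands and are in capitals. Each AGGGG match lay on the other strand and reads CCCCT here. *COS1* (chrXIV:8080-8379, plus strand) stands for *COS1*, *COS2*, *COS3*, *COS5* and *COS8*, whose 250 bases before the start were 98.4% to 100% identical to each other. *COS4* (chrVI:6176-6475, plus strand) and *COS6* (chrVII:1082680-1082979, minus strand) matched each other at 93.2% and *COS1* at 89.1% and 88.7%. *COS7*, not shown, matched *COS1* at 93.3%, *COS4* at 91.6% and *COS6* at 90.5%. *COS9* (chrXI:14235-14534, plus strand) and *COS10* (chrXIV:779666-779965, plus strand) matched *COS1* at 47.5% and 47.1%.
COS1: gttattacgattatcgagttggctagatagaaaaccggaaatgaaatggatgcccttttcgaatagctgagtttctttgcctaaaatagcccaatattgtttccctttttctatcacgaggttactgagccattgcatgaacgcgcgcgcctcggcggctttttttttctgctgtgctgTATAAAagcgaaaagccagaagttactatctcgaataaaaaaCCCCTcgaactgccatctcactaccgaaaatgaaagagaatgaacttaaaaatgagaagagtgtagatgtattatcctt
COS4: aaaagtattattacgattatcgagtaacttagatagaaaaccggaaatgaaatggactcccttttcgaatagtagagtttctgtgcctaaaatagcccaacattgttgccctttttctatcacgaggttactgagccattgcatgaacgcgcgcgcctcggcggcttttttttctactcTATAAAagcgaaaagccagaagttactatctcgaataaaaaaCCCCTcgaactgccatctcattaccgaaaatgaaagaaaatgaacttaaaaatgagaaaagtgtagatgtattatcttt
COS6: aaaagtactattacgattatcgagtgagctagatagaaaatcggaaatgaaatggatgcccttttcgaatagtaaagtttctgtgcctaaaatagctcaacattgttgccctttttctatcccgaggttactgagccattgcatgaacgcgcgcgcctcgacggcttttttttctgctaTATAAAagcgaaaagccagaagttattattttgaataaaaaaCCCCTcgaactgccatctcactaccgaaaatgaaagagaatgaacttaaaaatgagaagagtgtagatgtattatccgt
COS9: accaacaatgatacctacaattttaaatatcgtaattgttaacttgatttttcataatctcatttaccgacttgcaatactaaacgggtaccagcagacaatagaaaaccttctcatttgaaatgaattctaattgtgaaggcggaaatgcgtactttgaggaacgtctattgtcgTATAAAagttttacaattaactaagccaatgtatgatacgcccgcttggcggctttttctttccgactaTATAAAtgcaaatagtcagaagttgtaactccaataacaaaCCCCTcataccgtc
COS10: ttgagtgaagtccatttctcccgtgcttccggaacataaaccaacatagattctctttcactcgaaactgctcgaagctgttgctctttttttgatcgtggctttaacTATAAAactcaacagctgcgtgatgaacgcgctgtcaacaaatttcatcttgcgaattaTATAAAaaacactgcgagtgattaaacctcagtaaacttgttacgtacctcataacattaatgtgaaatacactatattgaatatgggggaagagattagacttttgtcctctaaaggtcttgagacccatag

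In *COS1* to *COS8* the TATAAA match began 71 bases and the CCCCT match 29 bases before the start, at the same place in all 8 genes. *COS9* held TATAAA 74 and 5 bases before its start, and its CCCCT began at base 37 of the annotated gene. The second TATAAA and the CCCCT of *COS9* thus lay nearer to or past the annotated start than in *COS1* to *COS8*. The low upstream identity of *COS9* may therefore depend on where its start is annotated, which was not tested. *COS10* held TATAAA 142 and 83 bases before its start, and no AGGGG. A match to TATAAA was found in 10 of 10 members and in 45.2% of 6001 promoter windows of the genome, and AGGGG in 9 of 10 members and in 21.6% of the windows. These members are copies of one another and not independent cases, and a match of letters is not a bound site.

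The likeness of the genes set how much of each could be counted. The authors counted with STAR, whose gene counts hold reads that map to 1 place only. Of the 100-base windows in a gene, the length of 1 read, 100% occurred once in the genome in *COS9* and *COS10*, 99.8% in *COS8* and 84.5% in *COS6*. The share was 54.4% in *COS4*, 52.1% in *COS7*, 49.4% in *COS1* and 42.4% in *COS5*. In *COS2* and *COS3* it was 0%, and it was still 0% with windows of 200 bases. The median over 5979 protein-coding genes was 100%, and 3.81% of them lay below 50%. With windows of 200 bases the share was 83.7% in *COS4*, 84.7% in *COS7*, 77.7% in *COS1* and 90.45% in *COS5*. The reads came in pairs, so the shares for 100 bases may understate how much of these genes could be counted.

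**Figure D1:**
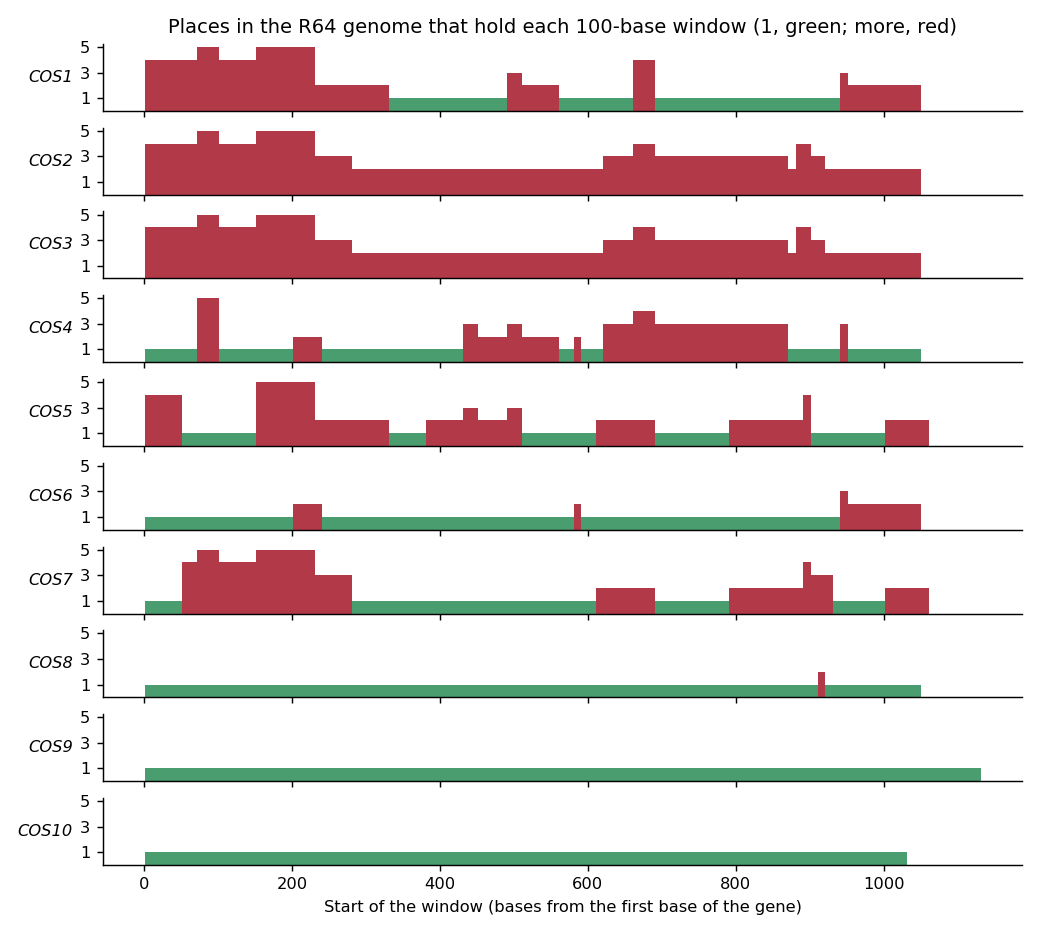
Number of places in the R64 genome (vertical axis) that hold the 100-base window starting at each position of a *COS* gene (horizontal axis, in bases from the first base of the gene), with windows found once in green and others in red. *COS9* and *COS10* are green throughout, *COS2* and *COS3* have no green, and *COS1*, *COS4*, *COS5* and *COS7* are green over 42.4% to 54.4% of their windows.

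A read placed in *COS2* or *COS3* alone has to reach past the gene or to differ from the reference sequence, as W303 may differ from S288C, and which of these applied was not tested. The levels and fold changes of this pair are uncertain for that reason. *COS6*, *COS8*, *COS9* and *COS10*, with at least 80% unique windows of 100 bases, are the 4 members whose counts depend least on the others.

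Levels differed far more between the members than between the treatments. Per kb of unique starts of 100-base windows, *COS6* was the highest in both groups, at 164 ± 3.01 CPM with auxin and 125 ± 2.23 CPM with the mock (SD, n = 3 each). *COS8* followed at 62.4 ± 0.851 CPM per unique kb with auxin and 64.8 ± 0.842 with the mock. *COS4* was the lowest, at 3.77 ± 0.306 CPM per unique kb with auxin and 1.91 ± 0.213 with the mock. The highest level was thus 65.4 times the lowest in the mock-treated cultures. Between them the order on this measure changed with the treatment. Per kb of whole gene it did not change among *COS10*, *COS1* and *COS5*. There *COS10* (46.2 CPM with auxin and 33.1 CPM with the mock) stood above *COS1*, and *COS1* above *COS5*, in both groups. With auxin, *COS10* (50.6 ± 0.291), *COS1* (49.9 ± 1.08) and *COS5* (48.9 ± 1.02) were next in CPM per unique kb, and neighbours in that order overlapped between cultures. With the mock, *COS1* (62.7 ± 0.469), *COS5* (53.5 ± 2.87) and *COS10* (36.3 ± 1.50) followed without overlap. *COS7* (26.6 ± 1.01 with auxin and 28.0 ± 2.08 with the mock) and *COS9* (21.3 ± 0.457 with auxin and 18.4 ± 0.459 with the mock) came before *COS4* in both groups. *COS2* and *COS3* have no unique windows and hence no such level. Of the 5 genes with nearly identical promoters, *COS8*, *COS1* and *COS5* stood at 64.8, 62.7 and 53.5 CPM per unique kb with the mock. With auxin they stood at 62.4, 49.9 and 48.9. How near these levels lay to each other depended on the length used. Per kb of whole gene, *COS1* stood at 22.5 ± 0.486 CPM with auxin and 28.3 ± 0.212 CPM with the mock. *COS5* stood at 18.9 ± 0.395 CPM with auxin and 20.7 ± 1.11 CPM with the mock on that measure. Per kb of whole gene, *COS8* stood at 56.9 ± 0.776 CPM with auxin and 59.0 ± 0.768 CPM with the mock. *COS3* stood at 0.381 ± 0.00169 and 0.170 ± 0.0647 CPM, a gap that the lost reads of *COS3* enter. Whether *COS2* and *COS3* differ in level from the others cannot be told from these counts.

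*COS12* (YGL263W, chrVII:2790-3932), a relative 2.79 kb from the end of the left arm, had 0 counts in each of the 6 cultures although 100% of its windows were unique. A count of 0 allows up to 3 counts per culture. Whether the W303 strain holds the gene was not tested.

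The auxin- and mock-treated cultures were then compared gene by gene with edgeR's quasi-likelihood test over all 6397 features that passed the filter. In the auxin-treated cultures 5 members were higher (*COS3*, *COS4*, *COS6*, *COS9*, *COS10*), 3 were lower (*COS1*, *COS2*, *COS5*) and 2 did not pass the test (*COS7*, *COS8*) at an adjusted p of at most 0.05, whereas scaling by total counts alone gave 8 higher and 0 lower. These calls have to be read against a transcriptome in which most features moved. Of all tested features 77% passed in either direction, 38.5% as higher and 38.5% as lower, so the 8 members called are near the background. The culture values did not overlap between the groups in 9 of 10 members and in 78.6% of all tested features. *COS3* alone was also past a log2 fold change of 1, against 7.72% of all tested features called higher past that size. This depended on single cultures, since *COS3* was at 0.92 without mock replicate 1, and *COS4* was at 1.04 without auxin replicate 1 and at 1.03 without mock replicate 2. The median log2 fold change was 0.08 over the members and 0.00 over all features. In RNA from whole cultures, fewer cells that make a transcript and less of it per cell cannot be told apart.

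**Figure D2:**
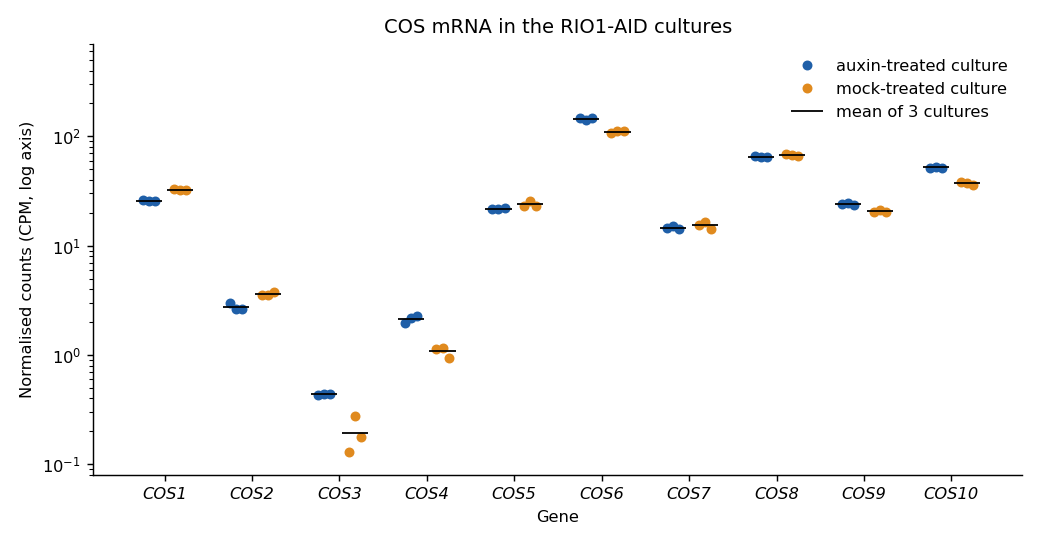
Normalised counts of the 10 *COS* genes (CPM, log axis) in each of the 3 auxin-treated (blue, left of each pair) and 3 mock-treated cultures (orange), with the group mean as a black line. Blue lies above orange without overlap in *COS3*, *COS4*, *COS6*, *COS9* and *COS10*, and below it without overlap in *COS1*, *COS2*, *COS5* and *COS8*, of which *COS5* and *COS8* change direction when scaled by total counts alone.

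*COS6*, the most abundant member, had 147, 142 and 146 CPM in the auxin-treated cultures, against 108, 112 and 111 CPM in the mock-treated cultures. All 3 auxin-treated cultures lay above the mock-treated ones. Its log2 fold change was 0.39 (SE 0.03, edgeR adjusted p = 4.1e-07). *COS10*, the most divergent member and the one that points towards its telomere, had 51.8, 52.3 and 51.7 CPM with auxin, against 38.5, 37.5 and 35.5 CPM with the mock. It too was higher in all 3 auxin-treated cultures, with a log2 fold change of 0.48 (SE 0.03, edgeR adjusted p = 7.7e-07).

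*COS9*, the member farthest from a chromosome end, had 24.1, 24.4 and 23.4 CPM in the auxin-treated cultures, against 20.4, 21.3 and 20.3 CPM in the mock-treated cultures. The groups did not overlap. The log2 fold change of 0.21 (SE 0.04, edgeR adjusted p = 3.8e-04) was the smallest among the 5 members called higher. *COS8*, also nearly fully unique, had 66.3, 64.6 and 64.9 CPM with auxin, against 68.3, 68.1 and 66.7 CPM with the mock. The groups were separate by a narrow gap, and the log2 fold change of -0.05 (SE 0.02, edgeR adjusted p = 0.077, but 0.20 with total counts alone) did not pass the test. It passed, as lower, when mock replicate 3 was left out (log2 fold change -0.07, edgeR adjusted p = 0.035).

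*COS4* had 256, 272 and 295 counts in the auxin-treated cultures, against 122, 132 and 96 counts in the mock-treated cultures. In CPM this came to 2.13 ± 0.173 with auxin and 1.08 ± 0.121 with the mock (SD, n = 3 each). All auxin-treated cultures were higher, and the log2 fold change was 0.98 (SE 0.12, edgeR adjusted p = 4.4e-05). *COS3* had 57, 55 and 56 counts with auxin, against 14, 31 and 18 counts with the mock. The groups did not overlap, and mock-treated cultures varied more among themselves than the auxin-treated ones. Its log2 fold change was 1.15 (SE 0.24, edgeR adjusted p = 0.0017).

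*COS2*, the identical copy of *COS3*, had 395, 334 and 337 counts in the auxin-treated cultures, against 383, 396 and 387 counts in the mock-treated cultures. In CPM this was 3.00, 2.65 and 2.61 with auxin, against 3.55, 3.51 and 3.80 with the mock, lower in all 3 auxin-treated cultures. The log2 fold change was -0.39 (SE 0.09, edgeR adjusted p = 0.0021). A pair with the same gene and the same 250 bases upstream was thus called in opposite directions. When their counts were summed, the pair had a log2 fold change of -0.26 (SE 0.08, edgeR adjusted p = 0.015), since *COS2* held most of the counts.

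*COS1* had 26.4, 25.4 and 25.5 CPM in the auxin-treated cultures, against 32.7, 32.3 and 32.3 CPM in the mock-treated cultures. It was lower in all 3 auxin-treated cultures, with a log2 fold change of -0.33 (SE 0.03, edgeR adjusted p = 6.0e-06). *COS5* had 21.5, 21.6 and 22.3 CPM with auxin, against 23.1, 25.4 and 23.1 CPM with the mock. The groups were separate by a small gap, and the log2 fold change was -0.13 (SE 0.04, edgeR adjusted p = 0.020), but 0.12 with total counts alone. This call was lost without auxin replicate 1 (edgeR adjusted p = 0.067), auxin replicate 2 (edgeR adjusted p = 0.056) or mock replicate 2 (edgeR adjusted p = 0.069). *COS7*, the closest relative of *COS5*, had 14.7, 15.2 and 14.1 CPM with auxin, against 15.4, 16.5 and 14.2 CPM with the mock. It was the one member whose groups overlapped, with a log2 fold change of -0.07 (SE 0.06, edgeR adjusted p = 0.28), or 0.18 with total counts alone. Without mock replicate 3 it was called lower (log2 fold change -0.13, edgeR adjusted p = 0.040).

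The direction of the small changes depended on how the cultures were scaled. The TMM factor was 1.09 for each auxin-treated culture and 0.902 to 0.928 for the mock, and scaling by total counts alone raised the median log2 fold change of all features by 0.25. On that scale *COS5* (edgeR adjusted p = 0.023), *COS7* (edgeR adjusted p = 0.014) and *COS8* (edgeR adjusted p = 1.0e-04) had positive log2 fold changes and were called higher. *COS1* (-0.08, edgeR adjusted p = 0.057) and *COS2* (-0.14, edgeR adjusted p = 0.17) were no longer called. *COS3* (1.40), *COS4* (1.22), *COS6* (0.64), *COS9* (0.46) and *COS10* (0.73) were called higher on both scales, and with all 6 cultures *COS4* was past a log2 fold change of 1 on the total-count scale but not with TMM.

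**Figure D3:**
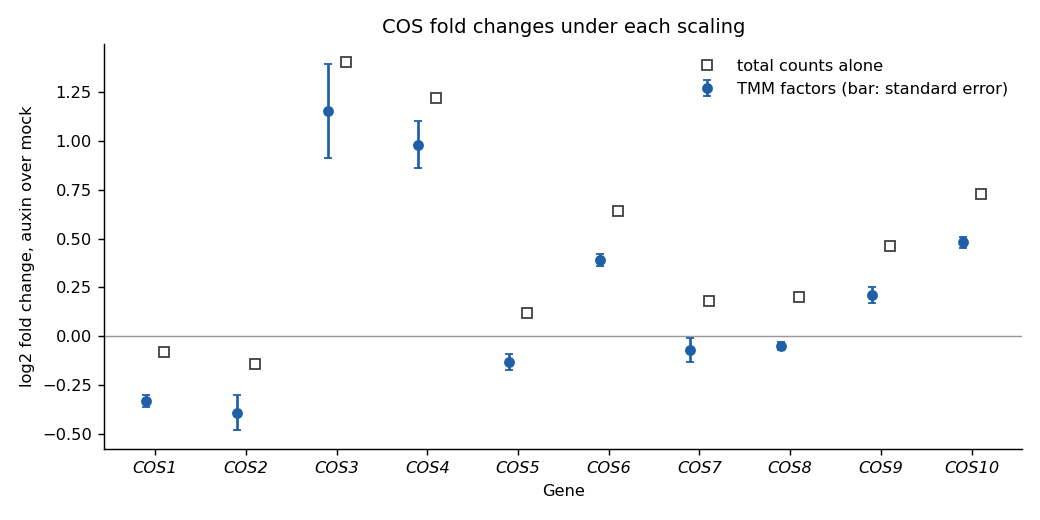
Log2 fold change of each *COS* gene, auxin over mock, with TMM factors (filled circles, bars are standard errors) and with total counts alone (open squares). The squares lie above the circles by about 0.25 for each gene, which carries *COS5*, *COS7* and *COS8* across 0.

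The make-up of the family pool does not depend on scaling. *COS6* took 41.2%, 40.5% and 41.3% of the summed *COS* counts in the auxin-treated cultures, against 34.8%, 35.3% and 36.1% in the mock-treated cultures. *COS10* took 14.7% ± 0.206 with auxin and 11.9% ± 0.431 with the mock (SD, n = 3 each). The shares of both were higher in every auxin-treated culture. *COS8* took 18.4% ± 0.0850 with auxin and 21.6% ± 0.254 with the mock, and *COS1* 7.29% ± 0.0903 with auxin and 10.4% ± 0.196 with the mock. Both shares were lower in every auxin-treated culture, as were those of *COS2*, *COS5* and *COS7*. The share of *COS9* overlapped between the groups (6.77% ± 0.164 with auxin and 6.61% ± 0.0646 with the mock). Among the 4 members with at least 80% unique windows, *COS6* held 50.7% ± 0.463 with auxin and 46.8% ± 0.801 with the mock, and *COS8* 22.8% ± 0.0934 with auxin and 28.7% ± 0.272 with the mock. In that set *COS10* held 18.1% ± 0.280 with auxin and 15.75% ± 0.579 with the mock. *COS9* held 8.37% ± 0.213 with auxin and 8.75% ± 0.122 with the mock, there without overlap and lower with auxin. A share rises when the others fall, and no test was made on the shares.

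The summed level of the 10 genes was 354 ± 3.36 CPM in the auxin-treated and 313 ± 5.02 CPM in the mock-treated cultures, a ratio of 1.13. Without *COS6* the sum was 209 ± 1.42 CPM with auxin and 202 ± 4.55 CPM with the mock, a ratio of 1.03. The sum of the 4 members with mostly unique windows was 286 ± 3.08 CPM with auxin and 236 ± 2.72 CPM with the mock, a ratio of 1.21.

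Set beside the promoters shown above, *COS1*, *COS2*, *COS5* and *COS8* shared nearly the same upstream bases and had log2 fold changes of -0.33, -0.39, -0.13 and -0.05, while *COS3*, with the upstream bases of *COS2*, had 1.15. *COS4* and *COS6*, the pair with 93.2% upstream identity, had 0.98 and 0.39. *COS7*, whose upstream bases were about as close to those of *COS1* (93.3%), had -0.07. *COS9* and *COS10*, whose 250 bases before the annotated start matched no other member above 47.9% and 49.1%, had 0.21 and 0.48. With 10 genes, of which several share reads, this grouping is a description only.

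Genes next to a member were examined as well. Only the nearest tested feature on each side of a member, within 10 kb, was taken, which gave 13 features. Of these, 7 were higher, 2 lower and 4 not called, with log2 fold changes between -0.96 and 1.30. With 77% of all tested features called, and 55.7% of those within 20 kb of a chromosome end higher, these counts were close to the background. Beside *COS9*, *FRE2*, a ferric and cupric reductase, stood at 31.0 ± 0.0493 CPM with auxin and 13.9 ± 0.613 CPM with the mock (log2 fold change 1.16, SE 0.04, edgeR adjusted p = 6.5e-09), while *SRY1*, which encodes a 3-hydroxyaspartate dehydratase, on the other side, stood at 11.1 ± 0.114 CPM with auxin and 15.9 ± 0.776 CPM with the mock (log2 fold change -0.51, SE 0.05, edgeR adjusted p = 5.3e-06). *COS9* itself, between them, had 0.21. Beside *COS8*, *ARN2*, a siderophore-iron transporter, was higher (37.5 ± 1.16 CPM with auxin and 29.7 ± 0.627 CPM with the mock, log2 fold change 0.34, edgeR adjusted p = 1.1e-05), and the small open reading frame YHL048C-A, with 11 to 73 counts per culture, had a log2 fold change of 1.30 (SE 0.32, edgeR adjusted p = 0.0043). *COS8*, between them, was not called. On the centromere side of *COS3*, YML131W stood at 44.0 ± 0.982 CPM with auxin and 85.7 ± 0.378 CPM with the mock (log2 fold change -0.96, SE 0.03, edgeR adjusted p = 2.3e-09). It fell where *COS3* was called higher.

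The other neighbours had under 80% unique windows and are uncertain in the same way as the *COS* genes. *MPH3*, a maltose permease homologue beside *COS5*, had a log2 fold change of 1.25 (SE 0.10, edgeR adjusted p = 2.5e-06) with 3.63% unique windows. *PAU24* beside *COS2* (0.84) and *PAU12* beside *COS6* (0.61), members of the seripauperin family, and YFL064C beside *COS4* (0.68) were called higher as well. *DDI2* beside *COS1*, *DDI3* beside *COS4*, YML133C beside *COS3* and *YRF1-3* beside *COS6* were not called. *COS7* and *COS10* had no tested annotated neighbour within 10 kb.

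**Figure D4:**
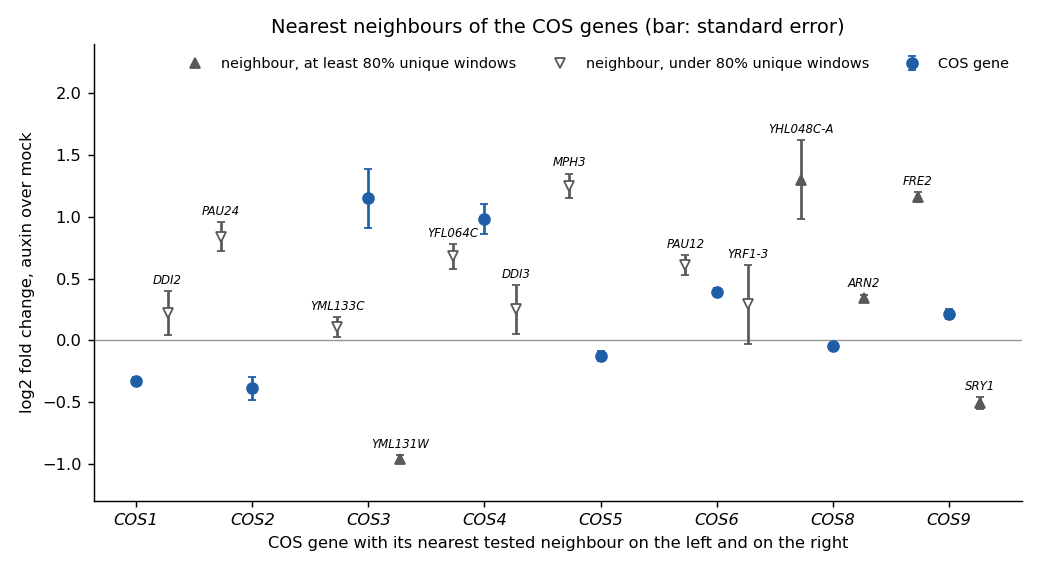
Log2 fold change, auxin over mock, of each *COS* gene (blue circles) and of its nearest tested neighbours on the left and on the right along the chromosome (triangles, filled where at least 80% of windows are unique), with standard errors as bars. *FRE2* and *SRY1* lie on opposite sides of 0 around *COS9*, and YML131W lies at -0.96 beside *COS3* at 1.15.

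Among all other features within 20 kb of a chromosome end, 185 of 247 were tested, of which 103 (55.7%) were higher and 37 (20%) lower, with a median log2 fold change of 0.22, against 38.5% in each direction and a median of 0.00 over all tested features. With total counts alone 130 were higher and 24 lower. The members, at 50% higher and 30% lower with a median of 0.08, lay between these values. Within 10 kb, 44 of 72 tested features were higher and 8 lower, with a median of 0.30. The extremes near the ends were YMR316C-A (4.21 ± 0.0834 CPM with auxin and 0.914 ± 0.188 CPM with the mock, log2 fold change 2.21) and *PHO89*, a sodium and phosphate cotransporter (7.24 ± 0.153 CPM with auxin and 37.1 ± 2.05 CPM with the mock, log2 fold change -2.35).

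Genes for the silencing of chromatin near telomeres had small differences in mRNA. Of 14 genes, 3 were higher and 7 lower, with a median log2 fold change of -0.08, against 11 higher and 0 lower with total counts alone. The 71.4% called were near the 77% of all tested features. *SIR2*, the histone deacetylase, was the highest of the list, with a log2 fold change of 0.14 (SE 0.03, edgeR adjusted p = 0.0011). *SIR3* was not called (-0.02, edgeR adjusted p = 0.45) and *SIR4* was lower (-0.12, edgeR adjusted p = 0.0043), but both were positive with total counts alone (0.22 and 0.13). *RIF1*, which limits telomere length, was the lowest at -0.24 (136 ± 1.76 CPM with auxin and 161 ± 0.979 CPM with the mock, edgeR adjusted p = 5.6e-06), and at 0.01 with total counts alone. *SUM1*, a repressor that works with the deacetylase Hst1, was lower (-0.14, edgeR adjusted p = 4.4e-04, but 0.11 with total counts alone) and *HST1* higher (0.10, edgeR adjusted p = 0.0088).

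Genes for the synthesis of NAD+, which Sir2 and Hst1 consume, and for the uptake of its precursor nicotinic acid were called lower in 13 of 13 cases. Over all tested features 38.5% were called lower and 77% in either direction. The median log2 fold change of the list was -0.39, and 8 were lower with 2 higher when scaled by total counts alone. *PNC1*, the nicotinamidase that removes an inhibitor of Sir2, was the lowest, at 119 ± 3.81 CPM with auxin and 225 ± 19.8 CPM with the mock (log2 fold change -0.92, SE 0.06, edgeR adjusted p = 2.7e-07). *NPT1*, the nicotinate phosphoribosyltransferase, was the highest (-0.09, edgeR adjusted p = 0.027), and was positive on the total-count scale (0.16). Its call was lost, leaving 12 of 13, without auxin replicate 3 (edgeR adjusted p = 0.090), mock replicate 1 (edgeR adjusted p = 0.053) or mock replicate 2 (edgeR adjusted p = 0.084). It was also lost when at least 10 counts were required in every culture (edgeR adjusted p = 0.059).

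Of the genes for the ESCRT complexes and their partners, which carry out the sorting that Cos proteins enter, 2 of 21 were higher and 10 lower, with a median log2 fold change of -0.07, against 14 higher and 1 lower with total counts alone. The share called was 57.1%, beside 77% of all tested features. *HSE1*, a subunit of ESCRT-0, was the lowest at -0.40 (70.9 ± 2.89 CPM with auxin and 93.4 ± 3.62 CPM with the mock, edgeR adjusted p = 7.2e-06). *VPS36*, of ESCRT-II, was the highest at 0.36 (42.1 ± 0.732 CPM with auxin and 32.8 ± 0.920 CPM with the mock, edgeR adjusted p = 4.3e-06). *RSP5*, the ubiquitin ligase of this route, was lower (-0.16, edgeR adjusted p = 1.1e-04, but 0.08 with total counts alone), while *VPS27* (-0.05, edgeR adjusted p = 0.096, but 0.20 with total counts alone) and the ATPase gene *VPS4* (0.02, edgeR adjusted p = 0.62) did not pass.

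Of *COS12* and the 10 *DUP240* genes, 10 were tested, 2 were higher and 5 lower, with a median log2 fold change of -0.17 (4 higher and 1 lower with total counts alone). The 70% called were near the 77% of all tested features. *DFP4* had 6.89 ± 0.0972 CPM with auxin and 4.70 ± 0.262 CPM with the mock (log2 fold change 0.55, edgeR adjusted p = 2.5e-05). *KTD1*, a defence factor against killer toxin K28, had 9.12 ± 0.305 CPM with auxin and 14.1 ± 0.547 CPM with the mock (log2 fold change -0.63, edgeR adjusted p = 1.7e-06).

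Over the 6 cultures, the features outside the family whose log2 CPM was most like the mean log2 CPM of the members were *TYS1*, the tyrosyl-tRNA synthetase gene (Pearson r = 0.997, log2 fold change 0.17), YLR463C (r = 0.995, log2 fold change 1.29) and YDL068W (r = 0.994, log2 fold change 0.42). The 6 points fall into the treatment groups, and 304 of 6379 features had an r over 0.95, so that many features are about as alike. Each member had the same weight in the mean. The low-count genes *COS3* (1.15) and *COS4* (0.98) therefore moved it most between the groups, and it does not stand for each member.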

How the data were processed

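RNA of 3 auxin-treated and 3 mock-treated cultures was depleted of rRNA and sequenced by the authors as stranded, paired 100-base reads. Trimmomatic, STAR and assembly R64 are named in the submitters' processing notes and the methods. The deposited values are whole-number counts per gene as STAR gives them, without normalization, from libraries with molecular identifiers, whose use in the analysis the study mentions without saying whether duplicates were removed before counting. Columns were matched to cultures by name, taking an a for auxin and the digit for the repeat, a coding that no label states.

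Features were filtered with filterByExpr, scaled with TMM factors and tested with edgeR 4.0.16 (quasi-likelihood test, R 4.3.3, Benjamini-Hochberg over 6397 features, adjusted p of at most 0.05). CPM were taken over TMM-scaled library sizes, per 1000000. At 110119744 to 125303818 counts per culture the median SE of a log2 fold change was 0.04. As these totals exceed the mapped read pairs in the paper, they may overstate the depth. The effect of this on the SE was not tested. Windows, identities and promoters were computed from the RefSeq R64 genome with Python 3.11.15. The code was tested on simulated data. Alternatives were DESeq2 1.42.0, glmTreat, scaling by RLE, by upper quartiles or by totals, other filters, a replicate block, other windows and distances, and leaving out each culture. The members and lists were chosen with earlier results of these data known. Named genes are the members, their nearest tested neighbours within 10 kb, the highest and lowest of each list among genes called with a mean of at least 100 counts, *RIO1*, *URA3*, *COS12*, 8 genes named in any case (*SIR2*, *SIR3*, *SIR4*, *SUM1*, *HST1*, *VPS27*, *VPS4*, *RSP5*) and the 3 features most like the members.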

Additional observations from a re-analysis of the deposited data

How the results depend on the processing

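The fold changes of *COS3*, *COS4*, *COS6*, *COS9* and *COS10* kept their direction and their call under every scaling, filter, DESeq2 and each left-out culture. No member passed glmTreat against a log2 fold change of 1 (0 called, 0 higher, 0 lower), although *COS3* was at 1.15. With total counts alone, 8 members were higher and 0 lower, and the log2 fold change was 0.12 for *COS5*, 0.18 for *COS7*, 0.20 for *COS8*, 0.09 for *URA3*, 0.22 for *SIR3*, 0.13 for *SIR4*, 0.11 for *SUM1*, 0.20 for *VPS27*, 0.08 for *RSP5*, 0.01 for *RIF1* and 0.16 for *NPT1*, each against a value below 0 with TMM. The *COS* sum then had a ratio of 1.34. The lists had 4 higher and 1 lower (*DUP240*), 14 and 1 (ESCRT), 11 and 0 (silencing), 2 and 8 (NAD+), and 130 and 24 near chromosome ends. Among the 4 members with mostly unique windows, chosen after seeing the data, 3 were called, 3 higher and 0 lower, with a ratio of the sums of 1.21. Leaving out each culture in turn gave 7 to 10 members called, 5 higher in each case, and 2 to 5 lower, the 10 and the 5 without mock replicate 3, a *COS* sum ratio of 1.12 to 1.14, and 1 to 2 *DUP240* genes higher. *VPS4*, not called, was at -0.00 without auxin replicate 3 and -0.02 without mock replicate 1, the lowest of a range up to 0.03 over the left-out cultures. Near chromosome ends, 52 features were called within 10 kb (44 higher, 8 lower) and 477 within 50 kb (273 higher, 204 lower). The ratio of the highest to the lowest *COS* level in the mock-treated cultures was 45.6 with 50-base windows, 85.9 with 200-base windows and 102 per whole gene, *COS6* over *COS4* each time, among the 8 members with unique windows. The replicate numbers are shared labels and were not treated as pairs: same-numbered cultures correlated at 0.152, -0.029 and 0.23 in their deviations from the group means, and auxin replicate 2 did not correlate best with its own number. With a replicate block, 8 members were called (5 higher, 3 lower), as without it, and 4 ESCRT genes were higher in place of 2. The cause of these shifts was not tested. *COS3* had 14 to 57 counts per culture.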
